A study of Rattus norvegicus with 15 samples.

Results

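The rat mammary gland was compared after either of a pair of exposures with the gland of virgin control rats, to find genes that a past pregnancy and a past course of ovarian-type hormones had moved the same way. Total RNA of the left inguinal gland was measured on 1 Affymetrix array per rat, in 15 female Lewis rats that were 3 months old and virgin when they were assigned at random to 3 groups of 5. All 15 arrays belong to the comparison, which sets the mean of the pregnancy group and the hormone group, each with the same weight, against the control group. Pregnancy rats (numbers 1, 2, 3, 7 and 9) carried a pregnancy to term over 21 to 23 days with sham capsules of cellulose in place, and their pups were removed 4 to 6 hours after birth, so their glands did not pass through suckled lactation. Hormone rats (numbers 1 to 5) carried 2 silastic capsules for 21 days, one with 100 µg of ethynyl estradiol, a synthetic estrogen, and one with 30 mg of megesterol acetate, a progestin (the spelling is that of the labels). Control rats (numbers 1, 2, 4, 5 and 6) carried sham capsules for 21 days and had neither exposure. The capsules were then taken out, every rat rested for about 49 days, and the glands were taken in metestrus. The arrays therefore read the glands weeks after each exposure had ended.

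During pregnancy, estrogen and progesterone drive the ducts of the gland to branch and to form secretory alveoli, and these are dismantled again in involution, when epithelial cells die and macrophages and other phagocytes clear cell debris and milk fat. An early full-term pregnancy lowers the later risk of mammary cancer in rats and in women, and a course of estrogen with a progestin gives a like protection in rats. Fat cells, connective tissue, blood vessels, and often a lymph node and strips of muscle come with a gland that is taken whole, so these transcripts are read along with those of the epithelium. In such bulk tissue, fewer cells of a type and less RNA per cell cannot be told apart.

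The label of the tissue was checked against its own markers. The keratins Krt8 and Krt18 of luminal cells, Krt14 of basal cells, the epithelial adhesion molecule Epcam, the alveolar transcription factor Elf5 and the milk protein genes Csn2, Wap and Lalba were called present by the MAS5 algorithm on 15 of 15 arrays. Csn2, beta-casein, ranged from 9.60 to 14.35 on the log2 scale over the 15 arrays. Each array had 65.3 to 68.4% of its probe sets called present, its median log2 value lay between 7.70 and 7.77, and its highest value between 14.45 and 14.57, and the 5 rats of each group limit the precision of every value. Transcripts of other tissues were uneven between arrays of the same group. The level of a list of 16 lymph node genes, as the mean of its members relative to the 15 arrays, ran from -0.45 to 0.97 in pregnancy rats and from -0.78 to -0.08 in hormone rats, against -0.84 to 1.28 in control rats, where rats 1, 4 and 5 read 1.15, 1.24 and 1.28 and rats 2 and 6 read -0.84 and -0.62. The level of a list of 23 skeletal muscle genes ran from -1.21 to 2.04 in pregnancy rats and from -0.94 to 3.43 in hormone rats, against -1.55 to 0.47 in control rats. The arrays that stood highest were pregnancy rats 7 and 9 (1.66 and 2.04) and hormone rat 4 (3.43). Of the lymph node list 8 members were called present on all 15 arrays and 1 on none, and of the muscle list 9 on all and 1 on none.

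Few probe sets passed the test, and their number rested on single arrays. Of 31042 probe sets, 74 passed in limma at a Benjamini-Hochberg adjusted p under 0.05, which is 0.238% of those tested. Of these 35 were higher in exposed rats (0.113% of those tested) and 39 were lower (0.126%). The higher share was thus 47.3%, and it was 60.4% of 91 when each array was first centred on its median. Their adjusted p-values ran from 0.0116 to 0.0496, and 67 of the 74 lay above 0.04. An unadjusted p under 0.05 was reached by 7755 probe sets, or 25.0%. Without control rat 4, none of the probe sets passed, and 5195 had an unadjusted p under 0.05. Without control rat 2, 3483 passed, without control rat 6, 1076, and without hormone rat 3, 285, while without any one of the other 11 rats the count lay between 4 and 81. The 4 arrays with the highest lymph node level were control rats 1, 4 and 5 and pregnancy rat 3. The fit without them keeps only control rats 2 and 6 as controls. In it 2 probe sets passed, neither among the 74, and 3338 had an unadjusted p under 0.05. All 74 kept their direction in each of these fits, which share most of their arrays with the full one and so give no separate support.

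**Figure D1:**
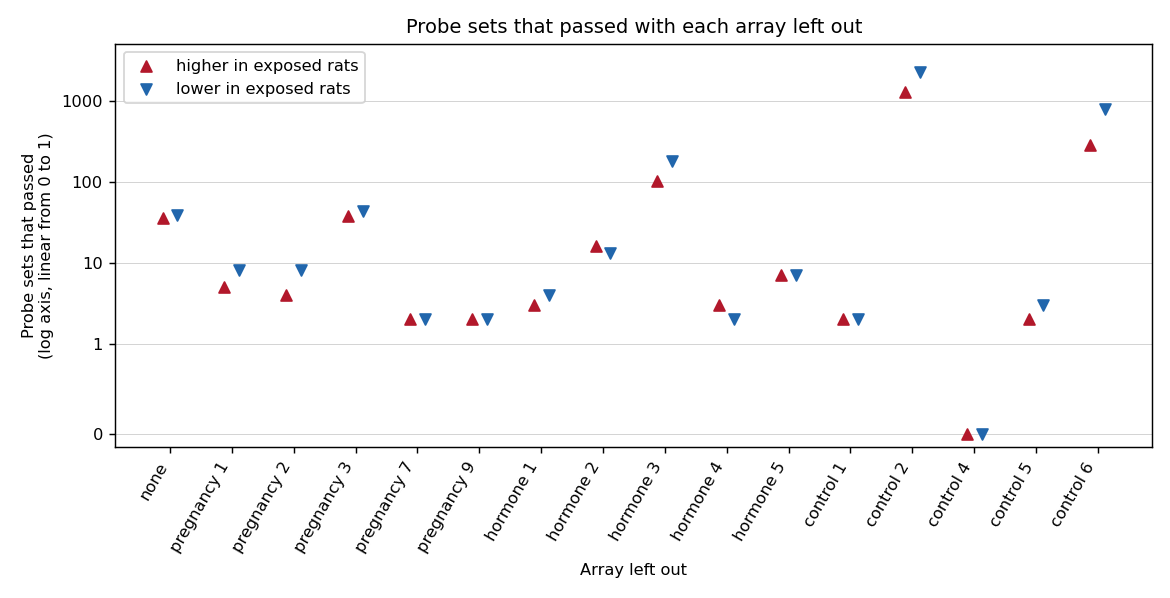
Number of probe sets higher (upward triangles) and lower (downward triangles) in exposed than in control rats at a limma adjusted p under 0.05, with no array left out and with each array left out in turn. The vertical axis is logarithmic above 1 and linear below it; 35 and 39 passed with all 15 arrays, and 0 and 0 without control rat 4.

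The 74 probe sets were then divided by how alike the exposures were. A change was counted as alike when the pregnancy and the hormone difference from control had the same sign and the smaller was at least 0.5 of the larger. By that rule 68 of the 74 were alike, 32 higher and 36 lower, 6 had the same sign but were less alike, and 0 had opposite signs. Requiring a ratio of 0.8 left 33 alike. Both differences are taken from the same 5 control rats, so like signs are in part built into the comparison, and the test itself favours probe sets that move one way in both groups. The rise was larger after pregnancy for 26 of the 35 probe sets that were higher, and the fall was larger after pregnancy for 22 of the 39 that were lower. The difference between the exposures passed for none of the 74 in limma (adjusted p), and over all probe sets 1 passed (0.00322%). Of the 74, 27 had an unadjusted p under 0.05 for that difference. The shares of all probe sets that reached this p or were alike are not given here. Neither the 27 nor the 68 is therefore read as particular to the 74. Taken alone against control, pregnancy called 38 of the 74 and hormone called 7, with 2 called in both and 31 in neither. Over all probe sets the corresponding calls were 61 for pregnancy (0.197%) and 9 for hormone (0.029%). In 14 of the 74 every exposed rat read above every control rat (137 of all probe sets, 0.441%), in 23 every exposed rat read below (92 of all, 0.296%), and in 37 the ranges overlapped; over all probe sets the groups were apart in either direction in 229, or 0.738%.

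The probe sets that passed named 60 genes, and 11 named no gene. Reading each gene by its brightest probe set, 45 genes passed, and 41 of them were measured, that is called present on at least 5 of the 15 arrays. They comprise 18 genes that were higher and 23 that were lower, and 38 of the 41 moved alike. Trem2, Cela1, Cfap126 and Drc12 passed with no present call on that probe set, whose values are not given. A dimmer probe set of Trem2 also passed, at 1.34 higher (limma adjusted p = 0.0496). It was called present on 5, 1 and 0 of the 5 arrays of pregnancy, hormone and control rats.

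**Figure D2:**
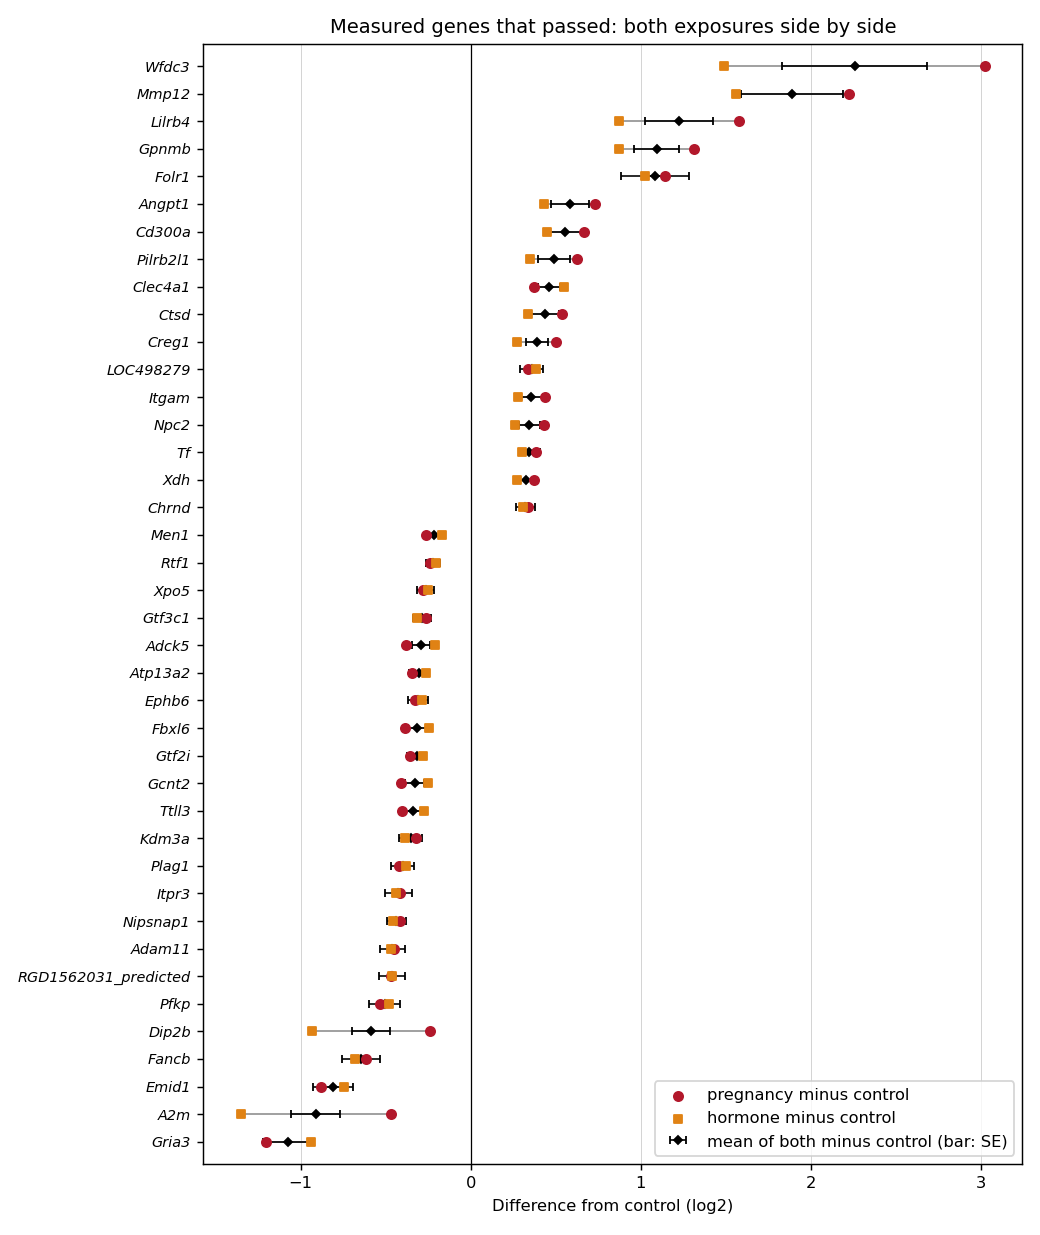
Log2 difference from control for 40 of the 41 measured genes that passed: pregnancy (circles), hormone (squares) and the mean of both (diamonds, with the moderated SE), ordered by the mean. Circle and square lie on the same side of 0 for all 40, and they lie far apart in Wfdc3, A2m and Dip2b, the genes that were not alike.

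Many of the 18 genes that rose are known from macrophages, other myeloid cells or lysosomes. They are described as one set here after their values were seen: the macrophage identity list holds Clec4a1 and Itgam, the list of lipid-handling phagocytes holds Gpnmb, Mmp12, Ctsd and Npc2, and Creg1, Lilrb4, Cd300a and Pilrb2l1 were added by their known roles. Gpnmb, a membrane glycoprotein of macrophages that are loaded with lipid or debris, rose 2.13-fold. Mmp12, the macrophage elastase that degrades elastin, rose 3.70-fold. The lysosomal genes Ctsd, Npc2 and Creg1 rose by 1.27- to 1.35-fold, and receptors of myeloid cells, Lilrb4, Cd300a, Clec4a1, Itgam and the paired receptor gene Pilrb2l1, rose by 1.28- to 2.34-fold. Outside this set, Atp13a2, a pump of the lysosomal membrane, also passed but fell by 0.31.

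Members of the MiT family of transcription factors, which drive lysosomal genes, bind E-box sequences of the kind searched for in the starts of these genes. The E-box CACGTG and the M-box core TCATGTG were not found in Npc2, Creg1, Lilrb4, Cd300a, Clec4a1, Itgam and Pilrb2l1. The starts of the other 3 genes of this set are shown, picked because they hold a match. Each is 300 bases, 250 before the start of the gene and 50 after it, 5′ to 3′ in the direction of the gene, from RefSeq on the GRCr8 build, with the motif in capitals. The positions are chr4:79340878-79341177 on the plus strand for Gpnmb, chr8:12866402-12866701 on the plus strand for Mmp12 and chr1:206968772-206969071 on the minus strand for Ctsd.
Gpnmb: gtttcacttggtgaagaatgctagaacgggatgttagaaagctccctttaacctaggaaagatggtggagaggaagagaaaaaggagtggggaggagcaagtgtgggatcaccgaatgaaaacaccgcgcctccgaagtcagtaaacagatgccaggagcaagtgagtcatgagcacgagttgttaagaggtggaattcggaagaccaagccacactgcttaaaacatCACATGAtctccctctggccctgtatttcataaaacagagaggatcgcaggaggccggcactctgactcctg
Mmp12: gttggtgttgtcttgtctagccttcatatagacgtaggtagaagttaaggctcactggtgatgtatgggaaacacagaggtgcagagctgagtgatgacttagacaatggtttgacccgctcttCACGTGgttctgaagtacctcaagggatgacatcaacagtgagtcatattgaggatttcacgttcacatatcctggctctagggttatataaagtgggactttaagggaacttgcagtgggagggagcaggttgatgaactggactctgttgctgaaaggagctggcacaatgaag
Ctsd: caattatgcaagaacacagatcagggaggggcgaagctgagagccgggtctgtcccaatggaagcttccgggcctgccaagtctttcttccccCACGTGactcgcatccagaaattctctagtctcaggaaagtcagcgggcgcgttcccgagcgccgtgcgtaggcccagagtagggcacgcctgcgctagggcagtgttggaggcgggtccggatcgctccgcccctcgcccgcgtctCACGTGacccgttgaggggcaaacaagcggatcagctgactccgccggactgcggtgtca
In Gpnmb the capitals mark the M-box core TCATGTG, read on the opposite strand, at -22 from the start. In Mmp12 they mark the E-box CACGTG at -126, and in Ctsd the same E-box at -157 and at -10. Of the 41 genes 30 had a start region in the RefSeq table, 14 that rose and 16 that fell, and both strands were searched. CACGTG was found in 2 of the 14 (Mmp12 and Ctsd) and in 2 of the 16 (Dip2b and Itpr3), and in 6.65% of all 27457 start regions. TCATGTG was found in 1 of the 14 (Gpnmb) and 0 of the 16, and in 3.46% of all. The core of the site of PU.1, a transcription factor of myeloid cells, GAGGAAGT, was found in none of the 30 and in 2.44% of all. The STAT site TTCNNNGAA was found in 1 (Itgam, at -105) and in 8.68% of all. A match is a description of these letters and does not show that a factor binds there.

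Gpnmb read 13.24, 13.05, 12.51, 13.16 and 12.82 in pregnancy rats and 12.62, 12.25, 12.84, 12.26 and 12.60 in hormone rats, against 11.90, 11.77, 11.58, 11.30 and 11.65 in control rats. All 10 exposed rats lay above all 5 control rats. The difference was 1.09 (SE 0.13, 95% interval 0.81 to 1.38, limma adjusted p = 0.0116), made of 1.32 after pregnancy and 0.87 after hormone. Gpnmb passed in 14 of the 15 fits that left out 1 array, more than any other of the 41 genes and in all but the fit without control rat 4, and its difference stayed between 1.01 and 1.16 in them. Without the 4 lymphoid-rich arrays the difference was 1.08 (limma adjusted p = 0.0747), and over all alternatives the adjusted p ran from 0.00229 to 0.163.

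Mmp12 read 11.44, 11.25, 10.54, 11.37 and 10.49 in pregnancy rats and 9.96, 9.17, 10.95, 10.44 and 11.26 in hormone rats, against 8.77, 8.92, 8.98, 8.07 and 9.24 in control rats. One hormone rat, number 2, read within the range of the control rats, so the groups overlapped, and the other 9 exposed rats lay above them. The difference was 1.89 (SE 0.30, 95% interval 1.25 to 2.53, limma adjusted p = 0.0411), 2.22 after pregnancy and 1.56 after hormone. It passed in 6 of the 15 fits that left out 1 array.

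Among the lysosomal genes, Ctsd encodes the aspartic protease cathepsin D. Ctsd ranged over 12.90 to 13.31 (median 13.16) in pregnancy rats and 12.83 to 13.14 (median 12.93) in hormone rats, against 12.39 to 12.85 (median 12.59) in control rats. The difference was 0.44 (SE 0.08, limma adjusted p = 0.0493), and the lowest hormone rats overlapped the highest control rat. Npc2 carries cholesterol out of the lysosome. Npc2 ranged over 13.15 to 13.38 (median 13.27) in pregnancy rats and 13.02 to 13.23 (median 13.09) in hormone rats, against 12.67 to 13.03 (median 12.85) in control rats. The difference was 0.34 (SE 0.06, limma adjusted p = 0.0493), and here too the ranges overlapped. Creg1, a glycoprotein of lysosomes, averaged 10.64 ± 0.07 in pregnancy rats and 10.41 ± 0.16 in hormone rats, against 10.14 ± 0.11 in control rats (SD, n = 5 each). A dimmer probe set of Creg1 also passed (0.40, limma adjusted p = 0.0493) but was less alike, with 0.67 after pregnancy and 0.12 after hormone.

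Among the receptors, Lilrb4 is an inhibitory immunoglobulin-like receptor of myeloid cells, and near relatives of it may share its signal. Lilrb4 read 9.46, 9.34, 8.05, 9.10 and 8.69 in pregnancy rats and 8.10, 7.81, 8.79, 8.03 and 8.37 in hormone rats, against 7.38, 7.42, 7.45, 7.13 and 7.36 in control rats. Every exposed rat lay above every control rat, and the pregnancy rats were the more spread. The difference was 1.23 (SE 0.20, limma adjusted p = 0.0424), 1.58 after pregnancy and 0.87 after hormone. Clec4a1 is a myeloid lectin receptor of the C-type family. Clec4a1 read 9.25, 9.25, 9.19, 9.19 and 9.24 in pregnancy rats and 9.60, 9.49, 9.49, 9.26 and 9.16 in hormone rats, against 8.83, 8.87, 8.83, 8.76 and 8.98 in control rats. The pregnancy rats lay within a few hundredths of each other, the hormone rats spread above and below them, and all 10 lay above the control rats. Clec4a1 had a difference of 0.46 (SE 0.07, limma adjusted p = 0.0243), was among those with the larger rise after hormone (0.37 after pregnancy, 0.55 after hormone), and passed in 10 of the 15 fits that left out 1 array. Creg1 passed in 6 of these 15 fits, Lilrb4 in 5, and Ctsd, Npc2 and Cd300a in 4 each.

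Cd300a, a receptor for phosphatidylserine on dying cells that restrains myeloid cells, also read above control in all 10 exposed rats. Cd300a ranged over 8.04 to 8.65 (median 8.46) in pregnancy rats and 7.86 to 8.38 (median 8.20) in hormone rats, against 7.61 to 7.85 (median 7.71) in control rats. The difference was 0.56 (SE 0.11, limma adjusted p = 0.0496). Itgam, the CD11b chain of the complement receptor of macrophages and neutrophils, averaged 8.51 ± 0.12 in pregnancy rats and 8.34 ± 0.15 in hormone rats, against 8.07 ± 0.08 in control rats (SD, n = 5 each), and was called present on 5, 3 and 4 of the 5 arrays of these groups. Pilrb2l1, of the paired immunoglobulin-like receptors, averaged 7.60 ± 0.15 in pregnancy rats and 7.33 ± 0.25 in hormone rats, against 6.98 ± 0.09 in control rats (SD, n = 5 each).

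**Figure D3:**
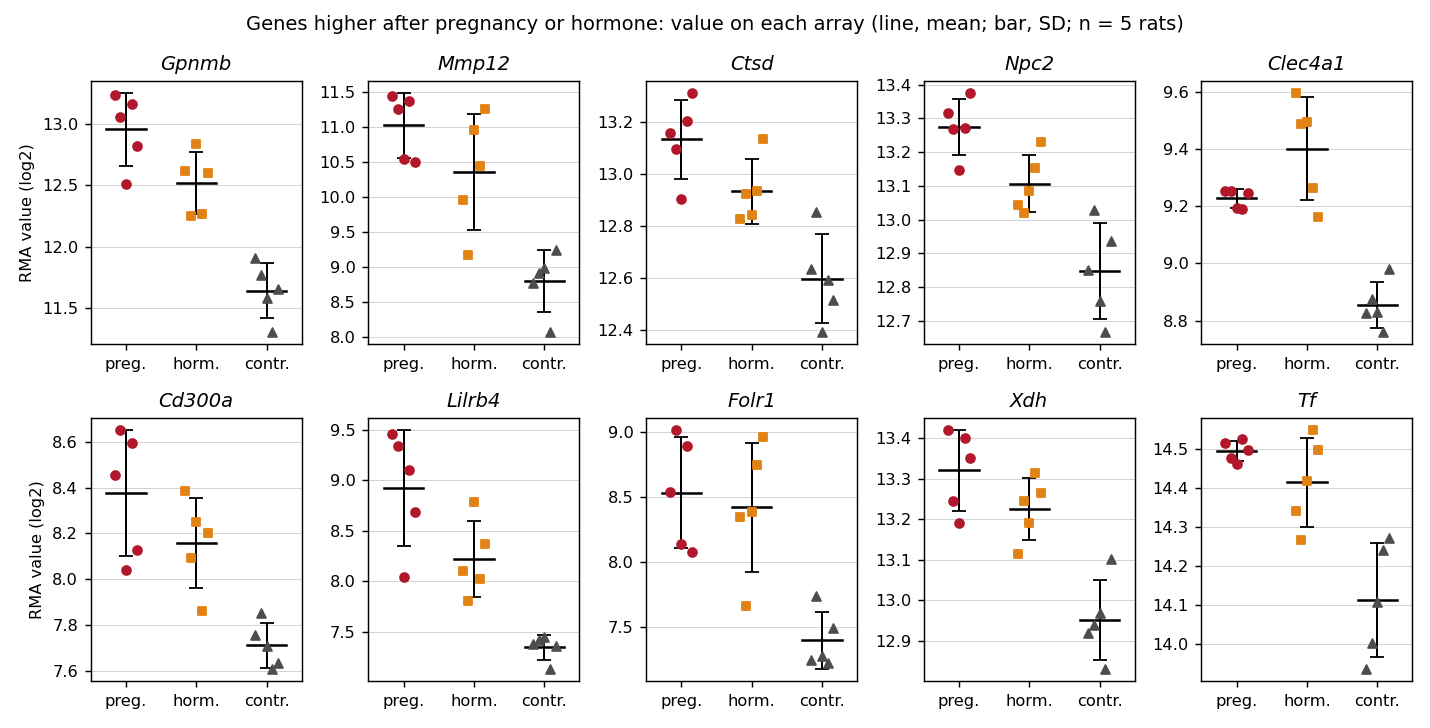
Log2 value of each array for 10 genes that rose, in pregnancy (circles), hormone (squares) and control rats (triangles), with the mean and SD of each group (n = 5). For Gpnmb, Clec4a1, Cd300a, Lilrb4 and Xdh all 10 exposed rats lie above all 5 control rats, while Mmp12, Ctsd, Npc2, Folr1 and Tf overlap. Each panel has its own log2 axis, which does not start at 0.

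The wider lists of this biology were read beside the 7810 of all 14235 genes that were higher, 22 of them called, and the median of all genes, 0.02. The lists were chosen with earlier results of these data known, so their counts describe these arrays and are not independent evidence. Of 25 genes of macrophage identity 24 were higher, 2 passed (Clec4a1 and Itgam), and the median difference was 0.27, with medians of 0.20 after pregnancy and 0.28 after hormone. The mean level of that list was 0.01 to 0.34 in pregnancy rats and -0.04 to 0.22 in hormone rats, against -0.37 to -0.11 in control rats, so the groups did not overlap. Among the 38 lists read here, that held only for this list and the carbonic anhydrases. Of 29 genes of lipid-handling phagocytes 25 were higher and 5 passed (Gpnmb, Mmp12, Ctsd, Npc2 and Trem2, the last on a probe set with no present call), with a median of 0.15. Without the 4 arrays rich in lymph node transcripts none of these genes passed, 23 of 25 and 19 of 29 were higher, and the medians were 0.17 and 0.14. Without the 3 arrays rich in muscle transcripts 25 of 25 and 27 of 29 were higher, and none passed. The lymph node level moved with the groups, at medians of 0.11 in pregnancy rats and -0.60 in hormone rats, against 1.15 in control rats, and its part in these results was not tested beyond these fits.

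The milk and secretory list held 3 further genes that rose. Folr1, whose folate-binding product is secreted in milk, rose 2.12-fold, Tf, the iron carrier transferrin, rose 1.27-fold, and Xdh, the oxidoreductase that is needed to wrap milk fat droplets in membrane, rose 1.25-fold. Folr1 read 8.54, 9.02, 8.14, 8.89 and 8.08 in pregnancy rats and 8.34, 7.66, 8.38, 8.74 and 8.97 in hormone rats, against 7.24, 7.74, 7.27, 7.22 and 7.49 in control rats. Hormone rat 2 read within the control range, and the other 9 exposed rats lay above it. The difference was 1.08 (SE 0.20, 95% interval 0.66 to 1.51, limma adjusted p = 0.0493), and pregnancy and hormone gave nearly the same, 1.14 and 1.03. Folr1 passed in 5 of the 15 fits that left out 1 array.

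Xdh ranged over 13.19 to 13.42 (median 13.35) in pregnancy rats and 13.12 to 13.31 (median 13.24) in hormone rats, against 12.83 to 13.10 (median 12.94) in control rats. All 10 exposed rats lay above the control rats, and the difference was 0.32 (SE 0.06, limma adjusted p = 0.0493). The dimmer probe set of Xdh read -0.15 and did not pass (limma adjusted p = 0.264), so the probe sets of this gene disagreed in sign. Tf ranged over 14.46 to 14.53 (median 14.50) in pregnancy rats and 14.27 to 14.55 (median 14.42) in hormone rats, against 13.94 to 14.27 (median 14.11) in control rats. The difference was 0.34 (SE 0.06, limma adjusted p = 0.0493). These values lie close to the highest of the arrays (14.45 to 14.57), and a dimmer probe set of Tf, present on all 15 arrays, read 0.87 higher, with 1.07 after pregnancy and 0.66 after hormone, and fell just short of passing (limma adjusted p = 0.0509).

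All 17 measured genes of the milk and secretory list were higher, with a median of 0.54, and 3 passed. The median was 0.83 after pregnancy and 0.27 after hormone. The mean level of the list was 0.10 to 0.76 in pregnancy rats and -0.63 to 0.40 in hormone rats, against -0.70 to -0.12 in control rats, so all pregnancy rats lay above the control rats and the hormone rats spread across them. All 17 were also higher without the lymphoid-rich arrays (median 0.32, none passed). General epithelial markers were divided: of 17 luminal epithelium genes 8 were higher and 9 lower, with a median of -0.01 and none passed, and of 13 basal and myoepithelial genes 7 were higher, with a median of 0.00. These directions depended on the fit. Without the lymphoid-rich arrays 13 of the 17 luminal genes (median -0.27) and 10 of the 13 basal genes (median -0.16) were lower, while with the replicate number as a block 14 (median 0.18) and 12 (median 0.21) were higher, and with array weights 11 and 12. Over the fits without 1 array 5 to 12 luminal and 5 to 13 basal genes were higher, with the medians highest, 0.08 and 0.15, without control rat 6. The 2 luminal genes with the smallest p were Prom1, a membrane protein of cell protrusions, at 0.72 higher (limma adjusted p = 0.0750), and the keratin Krt7 at -0.52 (limma adjusted p = 0.124).

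Genes of fat storage were higher on the whole, and none of them passed. Of 22 genes of fatty acid synthesis 20 were higher (median 0.37), with 0.51 after pregnancy and 0.21 after hormone, and 12 were higher at an unadjusted p under 0.05, where 12.0% of all 14235 genes were higher and 14.0% lower at that p. The closest to passing were Thrsp, a regulator of lipogenesis, at 0.55 higher (SE 0.13, limma adjusted p = 0.0671), and Dgat1, which makes triglyceride, at 0.46 higher (SE 0.14, limma adjusted p = 0.0855). All 15 adipocyte genes were higher (median 0.40), 10 of them at an unadjusted p under 0.05, among them the adipocyte transcription factor Cebpa (0.79, SE 0.20, limma adjusted p = 0.0707) and the fat hormone Lep (0.89, SE 0.26, limma adjusted p = 0.0817). All 15 were also higher without the lymphoid-rich arrays and without the muscle-rich arrays, at medians of 0.32 and 0.39, and a fit with array weights called 3 of the 22 fatty acid synthesis genes and 2 of the 15 adipocyte genes higher. That fit called 366 of all 14235 genes higher (2.57%) and 957 lower (6.72%). The mean level of the adipocyte list overlapped between groups, at -0.15 to 0.30 in pregnancy rats and -0.04 to 0.43 in hormone rats, against -0.64 to 0.14 in control rats. Of 20 cholesterol synthesis genes 16 were higher (median 0.10), 1 at an unadjusted p under 0.05, and none passed. Without pregnancy rat 9 the median of that list was 0.01, over the fits without 1 array 11 to 17 of its genes were higher, and with the replicate number as a block 10 were higher and 10 lower.

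All 12 carbonic anhydrase genes on the array were higher, with a median of 0.21, and none passed, while 5 had an unadjusted p under 0.05 (12.0% of all genes were higher at that p) and 3 passed with array weights (2.57% of all genes passed as higher). With the replicate number as a block 10 of the 12 were higher. These enzymes interconvert carbon dioxide and bicarbonate, and 5 of the 12 had no present call on any array. Car2 read 11.23, 11.62, 10.90, 12.65 and 12.23 in pregnancy rats and 11.43, 9.83, 10.39, 11.29 and 10.17 in hormone rats, against 9.20, 9.48, 9.49, 9.33 and 10.52 in control rats. All pregnancy rats lay above the control rats, and 3 of the 5 hormone rats lay within their range. The difference was 1.57 (SE 0.33, limma adjusted p = 0.0546), 2.12 after pregnancy and 1.01 after hormone. Car8, a relative with no catalytic activity, was 0.66 higher (SE 0.19, limma adjusted p = 0.0781). The mean level of this list was higher in every exposed rat than in every control rat, though no single gene of the 12 was. All 12 were higher without the lymphoid-rich arrays.

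The other 4 genes that rose have no common role. Wfdc3, a small gene with whey acidic protein domains, showed the widest difference of the named genes. Wfdc3 read 7.09, 8.80, 7.01, 8.70 and 9.04 in pregnancy rats and 6.13, 5.43, 5.97, 7.98 and 7.45 in hormone rats, against 5.08, 5.00, 4.88, 4.92 and 5.64 in control rats. It was called present on 4 of 5 pregnancy arrays, 2 of 5 hormone arrays and 0 of 5 control arrays, so the level in control rats was not told from background. The difference was 2.26 (SE 0.43, 95% interval 1.34 to 3.17, limma adjusted p = 0.0493), with 3.02 after pregnancy and 1.49 after hormone, which is below the ratio for alike. Wfdc3 passed in 5 of the 15 fits that left out 1 array. The difference between pregnancy and hormone was 1.54 (95% interval 0.48 to 2.59, limma adjusted p = 0.396). Angpt1, the ligand that activates the Tie2 receptor of vessel endothelium, was 0.58 higher (SE 0.11, limma adjusted p = 0.0496) and was called present on 5, 4 and 1 of the 5 arrays of pregnancy, hormone and control rats. Chrnd, the delta subunit of the acetylcholine receptor of muscle, was 0.32 higher (SE 0.06, limma adjusted p = 0.0493), with every exposed rat above every control rat. Its levels were low, with present calls on 2, 4 and 0 of the 5 arrays of these groups, and without the 3 muscle-rich arrays its difference was 0.29. LOC498279 was 0.36 higher (SE 0.07, limma adjusted p = 0.0493), again with every exposed rat above every control rat.

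The widest difference of all 74 belonged to a probe set that the deposited annotation and the gene tables do not name. Probe set 1371099_at read 10.53, 10.99, 9.70, 11.50 and 10.56 in pregnancy rats and 9.77, 8.14, 10.10, 10.06 and 10.54 in hormone rats, against 7.74, 7.16, 7.42, 7.36 and 7.89 in control rats. Every exposed rat lay above every control rat, with hormone rat 2 the closest to them, and the probe set was called present on all 15 arrays. It rose 6.38-fold (2.67, SE 0.34, limma adjusted p = 0.0116), with 3.14 after pregnancy and 2.21 after hormone. Of the other 10 unnamed probe sets, 1383757_at was 1.26 higher and 1374920_at was -0.71, both with exposed and control rats apart. 1383757_at was called present on 3, 5 and 0 of the 5 arrays of pregnancy, hormone and control rats. Its level in control rats was thus not told from background. These 3 probe sets are singled out after their values were seen.

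Of the 23 genes that fell, the widest fall was in Gria3, a subunit of AMPA-type glutamate receptors, at 2.10-fold. Gria3 read 5.71, 5.65, 6.53, 5.51 and 5.54 in pregnancy rats and 5.97, 6.07, 6.19, 6.03 and 6.00 in hormone rats, against 7.16, 6.50, 7.12, 7.11 and 7.08 in control rats. Pregnancy rat 3 stood well above the other 4 pregnancy rats and control rat 2 well below the other 4 control rats, and these 2 rats alone made the groups overlap. The difference was -1.07 (SE 0.15, 95% interval -1.39 to -0.75, limma adjusted p = 0.0232), -1.20 after pregnancy and -0.94 after hormone, and it passed in 9 of the 15 fits that left out 1 array. A dimmer probe set of Gria3 had no present call. Of the 17 ionotropic glutamate receptor genes 10 had no present call on any array, 10 were higher and 7 lower, and Gria3 was the one that passed.

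Nipsnap1, a mitochondrial protein that in human cells tags damaged mitochondria for removal, fell 1.35-fold and had the smallest adjusted p together with Gpnmb. Nipsnap1 read 8.37, 8.35, 8.55, 8.42 and 8.37 in pregnancy rats and 8.48, 8.42, 8.36, 8.18 and 8.43 in hormone rats, against 8.86, 8.73, 8.92, 8.79 and 8.86 in control rats. All 10 exposed rats lay below all 5 control rats. The difference was -0.44 (SE 0.06, 95% interval -0.56 to -0.32, limma adjusted p = 0.0116), with -0.42 after pregnancy and -0.46 after hormone, and it passed in 13 of the 15 fits that left out 1 array, all but those without control rat 1 and without control rat 4. Without the 4 lymphoid-rich arrays the difference was -0.42 (limma adjusted p = 0.135), and over all alternatives the adjusted p ran from 0.00612 to 0.163. A dimmer probe set of the gene also passed, at -0.40 (limma adjusted p = 0.0406). Of the 23 genes of mitochondrial upkeep 15 were higher and Nipsnap1 was the one that passed.

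Emid1, a secreted matrix protein with an EMI domain, fell 1.75-fold. Emid1 read 7.31, 7.40, 7.80, 7.55 and 7.30 in pregnancy rats and 7.83, 7.68, 7.47, 7.72 and 7.33 in hormone rats, against 8.50, 7.90, 8.50, 8.58 and 8.27 in control rats. Every exposed rat lay below every control rat, and control rat 2 was the control rat closest to them. The difference was -0.81 (SE 0.12, limma adjusted p = 0.0283), and it passed in 9 of the 15 fits that left out 1 array. Of 38 extracellular matrix genes 26 were lower and Emid1 alone passed, with a median of -0.13. The median of this list was -0.31 after pregnancy and 0.04 after hormone, a difference that was not tested. Of 19 matrix proteases and their inhibitors 12 were higher and Mmp12 alone passed.

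A pair of the genes that fell, A2m and Dip2b, were not alike and moved mainly after hormone. A2m encodes a broad protease inhibitor of plasma that is an acute phase protein in rats. A2m read 6.52, 6.26, 6.24, 5.68 and 6.08 in pregnancy rats and 5.06, 5.17, 5.28, 5.33 and 5.52 in hormone rats, against 7.13, 6.25, 6.71, 6.66 and 6.38 in control rats. The hormone rats all lay below the other groups, and the pregnancy rats overlapped the control rats. The difference from control was -0.47 after pregnancy and -1.35 after hormone, and -0.91 for their mean (SE 0.14, limma adjusted p = 0.0411). The probe set was called present on 4, 0 and 5 of the 5 arrays of pregnancy, hormone and control rats, so the level in hormone rats was not told from background. Of the 22 acute phase and innate genes 20 were higher and A2m was the one that passed. Dip2b read 9.53, 9.25, 9.58, 9.39 and 9.40 in pregnancy rats and 8.47, 8.72, 9.08, 8.53 and 8.88 in hormone rats, against 9.74, 9.38, 9.85, 9.93 and 9.46 in control rats. In Dip2b too the hormone rats lay below all others, with differences of -0.24 after pregnancy and -0.93 after hormone, and -0.59 for their mean (SE 0.11, limma adjusted p = 0.0493). Both other probe sets of Dip2b fell short of passing, at -0.42 and -0.36, and both were larger after hormone. The difference between pregnancy and hormone did not pass for either gene, at 0.88 for A2m and 0.69 for Dip2b (limma adjusted p = 0.303 for both).

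**Figure D4:**
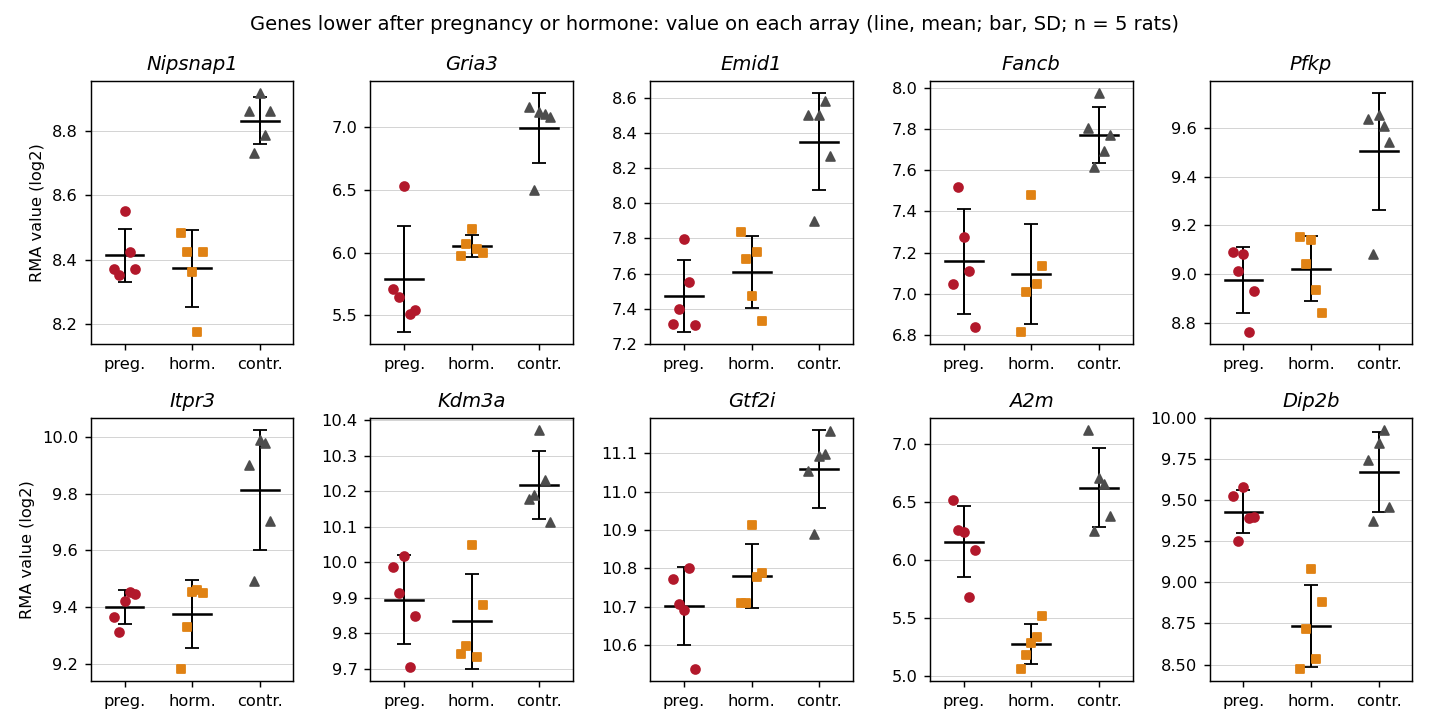
Log2 value of each array for 10 genes that fell, in pregnancy (circles), hormone (squares) and control rats (triangles), with the mean and SD of each group (n = 5). In Nipsnap1, Emid1, Fancb, Itpr3 and Kdm3a all 10 exposed rats lie below all 5 control rats, and in A2m and Dip2b the hormone rats lie below both other groups. Each panel has its own log2 axis, which does not start at 0.

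Several of the others act on DNA, chromatin or RNA. Fancb, a member of the Fanconi anemia core complex that repairs DNA crosslinks, fell 1.57-fold. Fancb ranged over 6.84 to 7.52 (median 7.11) in pregnancy rats and 6.81 to 7.48 (median 7.05) in hormone rats, against 7.62 to 7.98 (median 7.77) in control rats. The groups did not overlap, and the difference was -0.65 (SE 0.11, limma adjusted p = 0.0493). Kdm3a, which removes methyl groups from lysine 9 of histone H3, fell by 0.35, the zinc finger transcription factor Plag1 by 0.40, Gtf2i, the transcription factor TFII-I, by 0.32, Gtf3c1, a subunit of TFIIIC that serves RNA polymerase III, by 0.29, Xpo5, which exports precursors of miRNAs from the nucleus, by 0.26, and Rtf1, a partner of the elongating RNA polymerase II, and Men1, the menin scaffold of histone methyltransferase complexes, by 0.22 each. Their limma adjusted p-values ran from 0.0424 in Plag1 to 0.0496 in Men1. Plag1 passed in 6 of the 15 fits that left out 1 array, Kdm3a and Rtf1 in 4, and Gtf2i, Gtf3c1, Xpo5 and Men1 in 3. In Kdm3a, Plag1, Gtf3c1, Xpo5, Rtf1 and Men1 every exposed rat lay below every control rat, and in Gtf2i hormone rat 3 overlapped control rat 2. Men1 ranged over 9.31 to 9.49 (median 9.39) in pregnancy rats and 9.44 to 9.54 (median 9.47) in hormone rats, against 9.61 to 9.73 (median 9.66) in control rats. These falls were small and tight, and they were not shared by every probe set of the genes. Dimmer probe sets present on all 15 arrays read -0.06 in Men1, -0.09 and -0.03 in Rtf1 and -0.00033 in Xpo5, and none of these passed (limma adjusted p = 0.519 to 0.999).

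The wider lists of RNA and chromatin genes were lower in exposed rats without a member that passed. Read by their brightest probe sets, all 29 genes of RNA processing and splicing were lower. Their median was -0.20 (-0.18 after pregnancy and -0.22 after hormone). Of these 29, 21 had an unadjusted p under 0.05, where 14.0% of all genes were lower at that p. Over all 71 probe sets of these genes 58 were lower and 13 higher. The closest were the splicing proteins Luc7l3 at -0.36 (SE 0.09, limma adjusted p = 0.0671) and Sf3b1 at -0.33 (SE 0.08, limma adjusted p = 0.0705). Of 26 chromatin modifiers 24 were lower (median -0.19), 14 of them at an unadjusted p under 0.05, and 1 was higher at that p. Over all 73 probe sets of the chromatin modifiers 57 were lower and 16 higher. The smallest p-values were those of Mbd5, of the methyl-CpG-binding domain family, at -0.34 (SE 0.07, limma adjusted p = 0.0509), and the histone methyltransferase Kmt2a at -0.47 (SE 0.13, limma adjusted p = 0.0745). Of 32 proliferation genes 28 were lower (median -0.19), 3 of them at an unadjusted p under 0.05, and 1 gene was higher at that p. The smallest p-values were those of the mitotic kinesin Kif20a at -0.38 (limma adjusted p = 0.0728) and the replication helicase subunit Mcm3 at -0.78 (limma adjusted p = 0.109). With array weights 9 of the 29 RNA processing genes and 9 of the 26 chromatin modifiers passed as lower, in a fit that called 6.72% of all genes lower. With the replicate number as a block 21 of the 32 proliferation genes were higher (median 0.06), so this list turned its direction there. That fit draws nothing from control rat 6 and pregnancy rats 7 and 9. The proliferation level was 0.41 in control rat 6 and 0.63 in pregnancy rat 7. All 29 RNA processing genes and 24 of the chromatin modifiers were lower in the block fit. Without the 4 lymphoid-rich arrays 22 of the 29 RNA processing genes were lower (median -0.07), 18 of the 26 chromatin modifiers (median -0.05) and 20 of the 32 proliferation genes (median -0.06). Of 38 oxidative phosphorylation genes 36 were higher (median 0.13), 12 of them at an unadjusted p under 0.05. Of all genes 12.0% were higher at that p. Without the 4 lymphoid-rich arrays 21 of the 38 were higher (median 0.00). The lists of milk, fatty acid synthesis, adipocyte and carbonic anhydrase genes kept their count in the fit without those arrays.

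**Figure D5:**
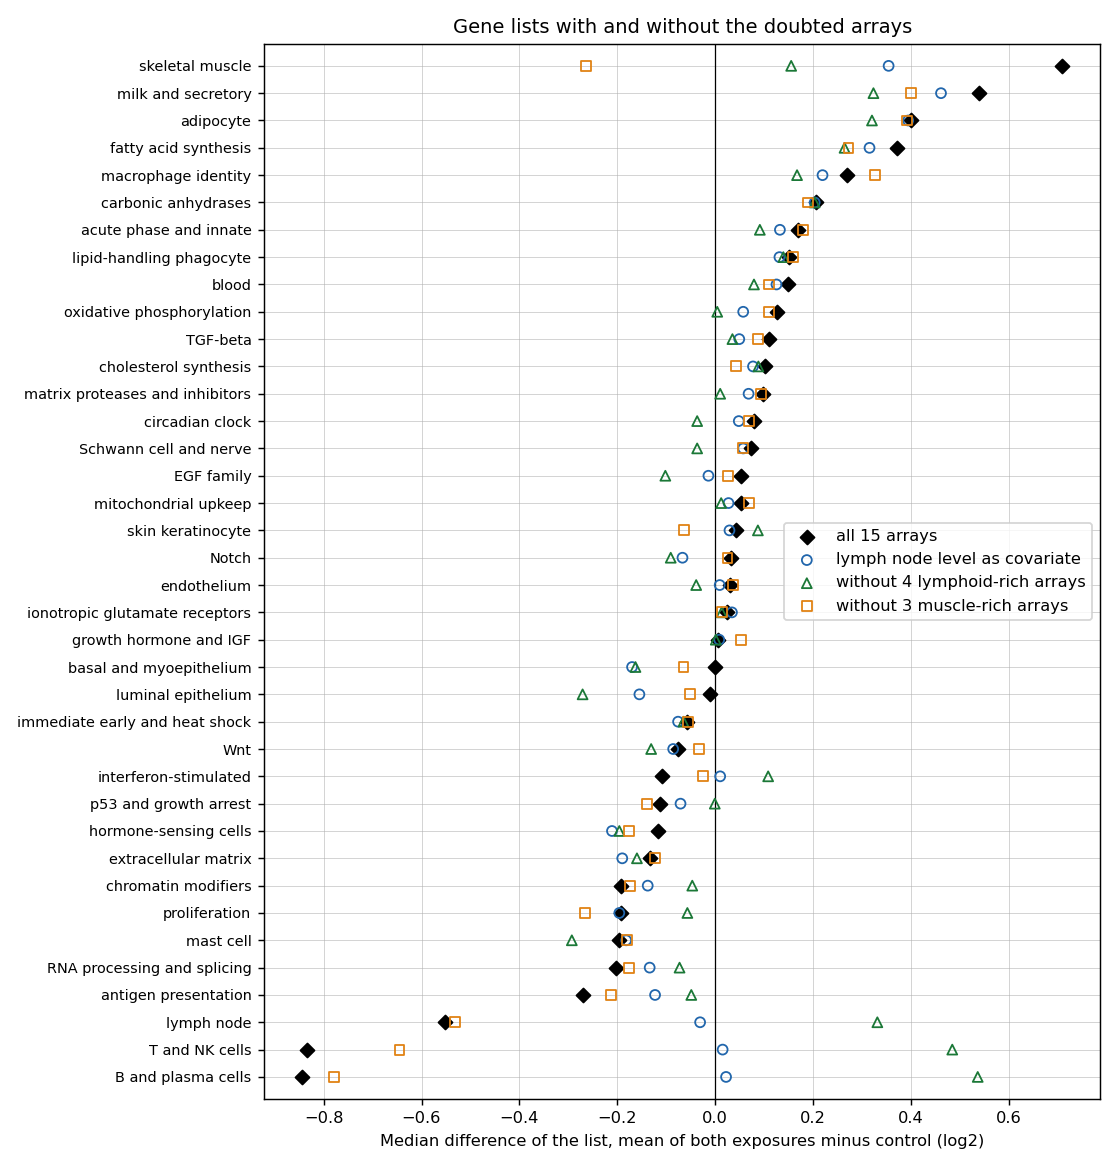
Median log2 difference of each of the 38 gene lists, mean of both exposures minus control: all 15 arrays (filled diamonds), lymph node level as a covariate (circles), without the 4 lymphoid-rich arrays (triangles) and without the 3 muscle-rich arrays (squares). The medians of the T and NK cell, B and plasma cell and lymph node lists are below 0 with all arrays and above 0 without the lymphoid-rich ones, and that of the muscle list is below 0 without the muscle-rich ones. The arrays left out were picked by the lymph node and muscle lists themselves, so the shifts of these lists follow from that choice. Without the lymphoid-rich arrays only control rats 2 and 6 remain as controls.

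The remaining genes that fell cover metabolism, signalling and membranes. Pfkp, the platelet isoform of the glycolytic enzyme phosphofructokinase, fell 1.42-fold. Pfkp ranged over 8.76 to 9.09 (median 9.01) in pregnancy rats and 8.84 to 9.15 (median 9.04) in hormone rats, against 9.08 to 9.65 (median 9.61) in control rats. Control rat 2, at 9.08, lay among the exposed rats and the other 4 control rats lay above them, and the difference was -0.51 (SE 0.09, limma adjusted p = 0.0493). Pfkp passed in 4 of the 15 fits that left out 1 array. Itpr3, a channel that releases calcium from the endoplasmic reticulum, fell by 0.43, Ephb6, a receptor for ephrins without kinase activity, by 0.31, Atp13a2, a pump of the lysosomal membrane, by 0.31, and Gcnt2, which branches sugar chains, by 0.33. Adam11, a member of the ADAM family without protease activity, fell by 0.46 and was called present on 1, 0 and 5 of the 5 arrays of pregnancy, hormone and control rats. Ttll3, which adds glycine to tubulin, fell by 0.34, the F-box gene Fbxl6 by 0.32, Adck5 by 0.29 and RGD1562031_predicted by 0.46. RGD1562031_predicted was called present on 1, 3 and 5 of the 5 arrays of pregnancy, hormone and control rats. Among these genes Itpr3, Ephb6, Atp13a2, Adam11, Ttll3, Fbxl6 and RGD1562031_predicted had every exposed rat below every control rat, while Gcnt2 and Adck5 overlapped. Their limma adjusted p-values lay between 0.0424 and 0.0496.

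Pathways through which pregnancy hormones reach the gland were then read for both exposures. In these lists none of the members passed in limma, and the medians lay between -0.12 and 0.11. Several of these medians changed sign in other fits. With the replicate number as a block 7 of the 12 hormone-sensing genes (median 0.04) and 15 of the 25 Wnt genes (median 0.04) were higher, and both medians were also above 0 without control rat 6. Without the lymphoid-rich arrays 2 of the 11 EGF family genes (median -0.10) and 6 of the 17 Notch genes (median -0.09) were higher. For the counts that follow, 12.0% of all 14235 genes were higher and 14.0% lower at an unadjusted p under 0.05. Of 12 genes of hormone-sensing cells 5 were higher (median -0.12), 3 at an unadjusted p under 0.05, and among them the estrogen receptor Esr1 was 0.52 higher (limma adjusted p = 0.152). Of 19 growth hormone and IGF genes 10 were higher (median 0.01), 2 at an unadjusted p under 0.05, with the growth hormone receptor Ghr at 0.45 higher (limma adjusted p = 0.185) and the IGF-binding protein Igfbp4 at 0.28 higher (limma adjusted p = 0.114). Of 11 EGF family genes 7 were higher (median 0.05), 1 at an unadjusted p under 0.05, with the ligand Hbegf at 0.31 higher (limma adjusted p = 0.124) and Egf at -0.16 (limma adjusted p = 0.417). Of 18 TGF-beta genes 12 were higher (median 0.11), with an unadjusted p under 0.05 in 4 that were higher and 2 that were lower, with the receptor Acvr1 at 0.32 higher (limma adjusted p = 0.0938) and Ltbp2, of the latent TGF-beta binding protein family, at -0.61 (limma adjusted p = 0.0808). Of 25 Wnt genes 10 were higher (median -0.08), with an unadjusted p under 0.05 in 2 that were higher and 3 that were lower, with the receptor Fzd4 at 0.58 higher (limma adjusted p = 0.0713) and the ligand Wnt5b at -0.39 (limma adjusted p = 0.152). Of 17 Notch genes 10 were higher (median 0.03), with an unadjusted p under 0.05 in 2 that were higher and 4 that were lower, and the closest to passing were lower: the receptor Notch1 at -0.39 (SE 0.08, limma adjusted p = 0.0539) and its coactivator Maml1 at -0.28 (SE 0.06, limma adjusted p = 0.0561). Of 22 p53 and growth arrest genes 17 were lower (median -0.11), with an unadjusted p under 0.05 in 3 that were higher and 6 that were lower. Over all 38 probe sets of these genes 23 were lower and 15 higher. Gadd45b, of the stress-induced Gadd45 proteins, was lower in every exposed rat than in every control rat (-0.65, SE 0.16, limma adjusted p = 0.0671), and its relative Gadd45a was 0.46 higher (limma adjusted p = 0.107).

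Lists of other cell types in the gland were uneven, with none of their members passing in limma. Of 13 B and plasma cell genes 10 were lower (median -0.84), of 21 T and NK cell genes 16 (median -0.83), of 16 lymph node genes 11 (median -0.55) and of 18 antigen presentation genes 16 (median -0.27). At an unadjusted p under 0.05 these lists had 2, 2, 3 and 9 genes that were lower, and 2, 3, 0 and 1 that were higher. Of all 14235 genes 14.0% were lower and 12.0% higher at that p, the share to set beside each such count below. In the lymph node list the closest were Ccl21, the chemokine that draws lymphocytes into the node, at -0.55 (limma adjusted p = 0.0972) and the cytokine Lta at -0.56 (limma adjusted p = 0.167). Without the 4 lymphoid-rich arrays 12 of the 16 lymph node genes (median 0.33), 12 of the 13 B and plasma cell genes (median 0.54) and all 21 T and NK cell genes (median 0.48) were higher. These arrays were picked by the lymph node list itself, and the control rats left, 2 and 6, stood at -0.84 and -0.62. The turn of that list was thus set by the choice of arrays. The B and T cell lists were high on the same arrays, so their turn is no separate result. Of 23 skeletal muscle genes 22 were higher (median 0.71), 1 of them at an unadjusted p under 0.05, and 17 of the 23 were lower without the 3 muscle-rich arrays (median -0.26). These 3 arrays, all of exposed rats, were picked by this same list, so that turn too was set by the choice of arrays. Of 13 mast cell genes 11 were lower (median -0.20), and of 20 interferon-stimulated genes 14 (median -0.11), with an unadjusted p under 0.05 in 3 and 2 of these and in 1 gene of each list that was higher. Without the lymphoid-rich arrays 15 of the 20 interferon-stimulated genes were higher (median 0.11). Of 20 immediate early and heat shock genes 13 were lower (median -0.06), and 12 were higher with the replicate number as a block (median 0.09), with the transcription factor Egr3 at -1.12 (limma adjusted p = 0.102) and the chaperone Hspa1a at -0.63 (limma adjusted p = 0.0618). Higher were 10 of 17 endothelium genes (median 0.03), 11 of 13 blood genes (median 0.15), 8 of 12 skin keratinocyte genes (median 0.04), 10 of 16 Schwann cell and nerve genes (median 0.07) and 12 of 18 circadian clock genes (median 0.08), with 1, 3, 0, 4 and 0 of these at an unadjusted p under 0.05, and 1, 1, 0, 1 and 0 that were lower at that p. The medians of the endothelium, Schwann cell and circadian lists were below 0 without the lymphoid-rich arrays, and that of the keratinocyte list was below 0 without the muscle-rich ones.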

How the data were processed

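Each expression value is a log2 value per probe set that the authors deposited, made by RMA per the submitters' processing notes, which also list GCOS, MAS5 and affy without versions. The 2 deposited copies of these values did not differ. Beside each value the deposited table gives the authors' MAS5 detection p-value and the call (present, marginal or absent) made from it. Neither a genome build nor an annotation date is stated in the labels or headers used. Of 31099 probe sets 57 controls were left out and 31042 tested, with no filter on level. Entrez identifiers linked 23371 to 14239 genes, 13762 of them found in a rat gene table, and 7671 named no gene. The table also holds 15 per-sample columns of an unlabelled group, not analysed here, and the authors' own comparisons and MAS5 signals were not used either.

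One mean per group was fitted to the 15 arrays in limma 3.58.1 under R 4.3.3 (residual df 12, prior df 2.70), and the mean of the pregnancy and hormone coefficients minus control was tested two-sided, with Benjamini-Hochberg adjustment over all 31042 probe sets and a threshold of 0.05. Tables were prepared with pandas 2.3.3 (Python 3.11.15), and the fit was tested on simulated data. Errors are moderated standard errors unless given as SD.

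A gene was read by its brightest probe set that names a single gene. Named were, of measured genes that passed, the 15 largest increases and 15 largest decreases that moved alike (all, where fewer), the 4 with the smallest p of those that did not, and of each list at most 4 members that passed or else the 2 with the smallest p. The other genes that passed are named in addition, after their values were seen, and a few genes within the rule, 1 of the 41 among them, are not reported here. The 38 gene lists hold 817 entries, of which 758 have a probe set. The members and lists were chosen with earlier results of these data known, so the counts in a list describe these arrays and are not independent evidence. A list's level is the mean of its members relative to the mean of the 15 arrays. Alternatives were another scaling, a filter on present calls, array weights, other moderation, 1 mean for the 10 exposed rats, list levels as covariates, the replicate number as a block, other probe sets, and leaving out each array or the arrays rich in lymph node or muscle transcripts.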

Additional observations from a re-analysis of the deposited data

Results flagged for a closer look

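Among 213 checks of a single group of 5 rats in the 71 genes described, 12 found 1 rat set apart from the other 4 by more than Dixon's criterion allows, in 11 genes, and chance alone would give about 5% of such checks. Lilrb4 read 7.134 in control rat 5, below the other control rats at 7.357 to 7.447, and Itgam read 8.216 in the same rat, above the others at 8.024 to 8.04. In control rat 6 Wfdc3 read 5.638, above the others at 4.883 to 5.078, Ttll3 read 6.835, below 6.965 to 7.012, and Car2 read 10.524, above 9.203 to 9.486. In control rat 2 Gria3 read 6.497, below 7.08 to 7.161, and Pfkp read 9.082, below 9.546 to 9.654. In pregnancy rat 3 Gria3 read 6.531, above the other pregnancy rats at 5.511 to 5.71, and Gtf3c1 read 9.398, below 9.424 to 9.431. In hormone rat 3 Kmt2a read 9.916, above the other hormone rats at 9.483 to 9.603, and Maml1 read 9.233, above 9.03 to 9.074. Hspa1a read 8.756 in hormone rat 1, below 9.289 to 9.419. Control rats 2 and 6, which hold 5 of the 12, are the control rats with the lowest lymph node levels, and pregnancy rat 3 is the pregnancy rat with the highest. Control rat 5, which holds the flags in Lilrb4 and Itgam, has the highest level of the control rats (1.28). Hormone rat 3, with the flags in Kmt2a and Maml1, has a low one (-0.66). A link between the flags and the lymph node level was not tested.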

How the results depend on the processing

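The 74 probe sets that passed (35 higher, 39 lower, 68 alike) became 86 (40, 46, 78) with only probe sets present on at least 5 arrays and 68 (36, 32, 64) without moderation. Centring each array on its median gave 91 (55 higher, 36 lower, 81 alike), 60.4% of them higher against 47.3% uncentred. Repeated quantile normalisation gave 28 (14, 14, 26), trend and robust moderation 29 (14, 15, 28), 1 mean for the 10 exposed rats 38 (16, 22, 38), and array weights 2761 (851, 1910, 2588). The lymph node level as a covariate gave 14 (2, 12, 14), of which 8 were among the 74, and the lymph node and muscle levels together 6 (1, 5, 6). Without the 4 arrays rich in lymph node transcripts 2 passed (2, 0, 0), and without the 3 arrays rich in muscle transcripts 0 passed (0, 0, 0), with 4701 at an unadjusted p under 0.05. With the replicate number as a block, 0 probe sets passed (0, 0, 0) in limma, and 6114 had an unadjusted p under 0.05. That fit draws nothing from control rat 6 and pregnancy rats 7 and 9, whose numbers no other rat shares. In the main fit the numbers were read as labels only and do not pair the rats. The correlation of deviations between same-numbered rats ran from -0.253 to 0.376 over 9 pairs. It was not set beside that of rats with different numbers, so it cannot decide whether same-numbered rats shared a block. With 1 array left out, the count ran from 0 without control rat 4 to 3483 without control rat 2, the higher count from 0 to 1259, the lower from 0 to 2224 and the alike count from 0 to 3298. Requiring a ratio of 0.8 left 33 alike, and the same sign alone 74. The cause of these shifts was not tested.

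Of 1955 values over the 71 genes and their alternatives, 1199 kept their direction and their side of the threshold, 691 kept their direction and no longer passed, 57 newly passed, and 8 turned their direction. On another probe set Xdh read -0.15, Ttll3 0.029, Esr1 -0.11, Mbd5 0.0078, Kmt2a 0.032 and Egr3 0.063, and without the lymphoid-rich arrays Lta read 0.15 and Mcm3 0.0069. All 74 probe sets kept their direction in these fits, which share most of their data.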
